A study of Mus musculus with 2 samples.

Results

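The sperm tail structural genes are 10 genes whose proteins build or assemble the flagellum of sperm: Akap3 and Akap4 of the fibrous sheath, Odf1 and Odf2 of the outer dense fibres, Tekt1, Tekt2 and Spag6 of the axoneme, Meig1 of tail assembly, Cetn1 of the centriole and Smcp of the mitochondrial capsule. They were followed in the epididymal fat pad of male mice, a white adipose depot beside the epididymis and testis. Members were all probe sets whose annotated gene symbol is one of the 10 names. This gave 14 probe sets for 9 genes, out of 22690 probe sets in all and 12394 genes that the annotation names. Spag6 had no probe set under its own name. A probe set named Spag6l, a separate gene that once carried the symbol Spag6, is described beside the members and not counted among them.

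The study compared PPARβ/δ knockout mice, which lack a lipid-activated nuclear receptor encoded by Ppard, with wild-type mice, all male and fed chow. Each genotype is 1 Affymetrix array of RNA combined from 5 animals, so no p-value, SD or SE between animals can be given, and precision is limited by the number of arrays. The wild-type pool is labelled 129S1/SvJae and 12 to 16 weeks old, and the knockout pool as a mixed Sv129/C57BL/6 background and 12 weeks old, while the design text calls the wild-type mice littermates. Genotype, strain, age, array and the dissection of the pad therefore cannot be told apart. The labels name no promoter or Cre for the knockout. The probe set of Ppard was at 6.58 in wild-type fat and 6.27 in knockout fat, below the intensity floor of 32 that served here as the limit of detection, so it gives no check of the labels.

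The sperm tail is a motile axoneme wrapped in structures that other cilia lack. Outer dense fibres run along the microtubule doublets, a sheath of mitochondria surrounds the midpiece, and the fibrous sheath surrounds the principal piece and anchors signalling and glycolytic enzymes. The proteins are made mainly in haploid spermatids of the testis, and white adipocytes carry no sperm tail. Axonemal genes such as the tektins also serve other motile cilia, and Odf2 also encodes a protein of the centrosome found in many cell types.

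Promoter letters are shown as a description of the members' start sites. Whether they bear on the differences between the pools was not tested. RefSeq promoter windows (GRCm38.p6) were found for 8 of the 10 members, in 17 windows, and the 250 bases before each start were searched on both strands. A half-site of RFX factors, regulators of cilium genes, is written GTTGCC. It was present in 4 windows of 3 members, Tekt1, Tekt2 and Spag6, and in 10.4% of all 32851 windows. The Tekt2 windows counted overlap and hold the same sites, so windows are not separate places in the genome. The stretch of Tekt2 (chr4:126325689-126325798, minus strand) has the half-site on the gene strand and again on the opposite strand near the start. The one of Smcp (chr3:92589074-92589313, minus strand) holds the letters TGTTTAC, a core of FOXJ1, another ciliary regulator, on the opposite strand, as 3.17% of all windows do on either strand. Capitals mark these letters, 5′ to 3′ in the direction of the gene, and each stretch ends at the base before the start.
Tekt2: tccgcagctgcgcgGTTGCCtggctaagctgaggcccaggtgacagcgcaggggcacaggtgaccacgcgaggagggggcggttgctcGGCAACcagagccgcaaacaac
Smcp: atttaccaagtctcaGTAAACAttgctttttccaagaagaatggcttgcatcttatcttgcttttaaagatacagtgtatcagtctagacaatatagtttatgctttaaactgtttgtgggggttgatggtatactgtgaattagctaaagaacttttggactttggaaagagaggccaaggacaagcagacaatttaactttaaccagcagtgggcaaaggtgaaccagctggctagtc

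The core of the cyclic AMP response element, TGACG, was present in 5 windows of 3 members (Meig1, Odf2 and Tekt1) and in 17.8% of all windows. Its full palindrome TGACGTCA, which contains that core, was in none of the 17 member windows and in 1.55% of all windows. The MYB core CAGTTG was in 1 member window, of Tekt1, and in 11.1% of all windows. The Odf2 windows that hold TGACG overlap and share the same sites. All these matches describe letters only.

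All 14 member probe sets were above the floor in knockout fat and brighter there than in wild-type fat. Intensities ran from 14.6 to 315 in wild-type fat, with a median of 37.2, and from 117 to 5409 in knockout fat, with a median of 2553. With values below the floor raised to 32, 13 of the 14 probe sets were at least 2-fold higher in knockout fat and 9 at least 16-fold, against 10.3% and 1.4% of all 9637 probe sets of named genes above the floor on at least 1 array. As measured the counts were 13 and 11, against 12.5% and 2.09%. Of the member probe sets, 6 were below the floor in wild-type fat. These passed the floor through knockout fat alone and had to come out higher. Of the 8 already at or above the floor in wild-type fat, 7 were at least 2-fold higher and 6 at least 16-fold, against 6.83% and 0.644% of the 8702 probe sets at or above the floor there. In this bulk tissue, more cells of a type and more RNA per cell cannot be told apart.

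**Figure D1:**
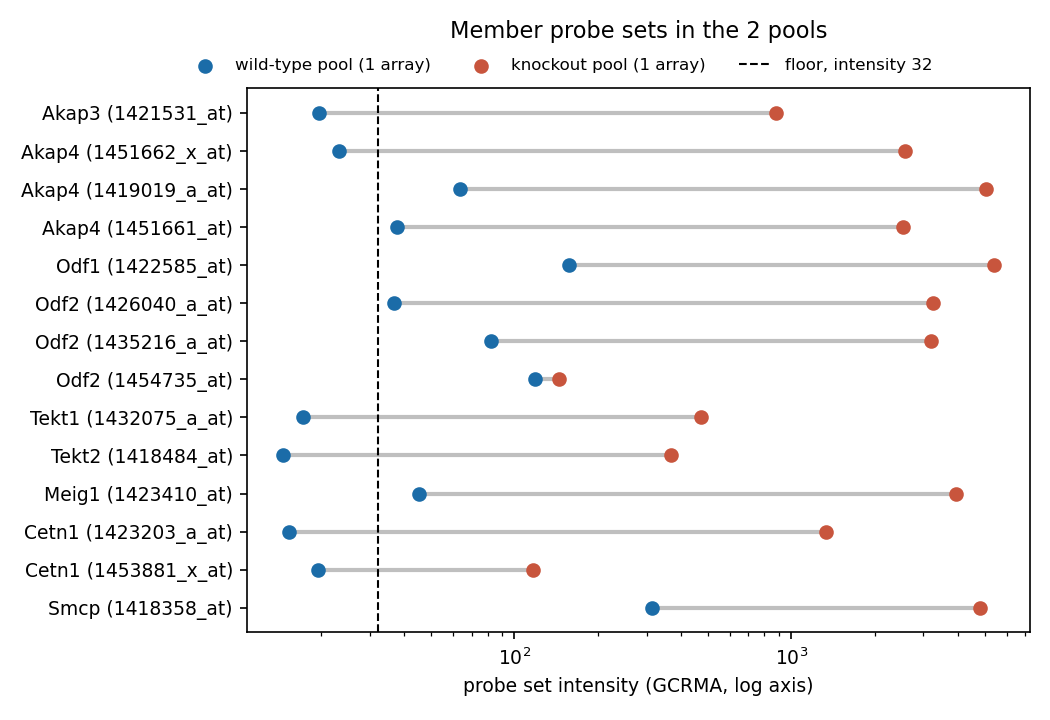
Intensity of each member probe set (log axis) in wild-type fat and knockout fat, 1 array each, with a dashed line at the floor of 32. The lines are long for 13 probe sets, and the probe set of Odf2 at 119 and 145 is the one where the points almost meet.

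Both fibrous sheath members were more than 16-fold higher in knockout fat. Akap4, the X-linked anchor of protein kinase A that is the main protein of the sheath, was read by 3 probe sets. They were at 63.4, 37.6 and 23.3 in wild-type fat and at 5047, 2535 and 2570 in knockout fat. The log2 differences, knockout minus wild type, were 6.32, 6.07 and 6.79, so the probe sets of this gene lay close together, with an SD of 0.36. The first gave a 79.7-fold difference. The third was below the floor in wild-type fat, and its difference was at least 80.3-fold with the wild-type value set to 32. Akap3, the related anchor that is laid down earlier in sheath assembly, was at 19.6 in wild-type fat, below the floor, and at 877 in knockout fat, at least 27.4-fold higher.

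The outer dense fibre members split by probe set. Odf1, a major protein of the fibres, was at 157 in wild-type fat and 5409 in knockout fat, 34.4-fold higher. It was well above the floor in both pools. Odf2 was read by 3 probe sets. The probe set 1426040_a_at was at 36.8 in wild-type fat and 3257 in knockout fat, 88.5-fold higher. The probe set 1435216_a_at was at 82.3 and 3194, 38.8-fold higher. The third probe set of Odf2, 1454735_at, was at 119 and 145, only 1.22-fold higher, although it was the brightest of the 3 in wild-type fat. The SD of the log2 difference between the probe sets of Odf2 was 3.28. For the 2137 genes read by more than 1 kept probe set, the median of this SD was 0.25 and its 90th percentile 0.75, and Odf2 was number 4 from the top. Odf2 yields both fibre and centrosome proteins, and the transcripts that each probe set reads were not analysed here. Its differences of 6.47, 5.28 and 0.29 on the log2 scale are therefore best read per probe set.

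Both measured members of the axoneme were below the floor in wild-type fat. Tekt1, a tektin, one of the filament proteins inside the doublet microtubules, was at 17.3 in wild-type fat and 471 in knockout fat, at least 14.7-fold higher. Tekt2, its relative, was at 14.6 and 367, at least 11.5-fold higher. The probe set of Spag6l, a protein of the central pair of microtubules, was at 23.3 and 403, at least 12.6-fold higher. These 3 genes were dim in knockout fat beside most other members, but intensities of different probe sets do not compare transcript amounts.

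Meig1, which works in the manchette to carry cargo to the growing tail, was at 45.2 in wild-type fat and 3947 in knockout fat, 87.3-fold higher. The wild-type value was just above the floor. Cetn1, a centrin found mainly in male germ cells, had 2 probe sets, both below the floor in wild-type fat. The first was at 15.4 and 1340, at least 41.9-fold higher, and the second, whose name marks probes that may also match other sequences, at 19.5 and 117, at least 3.65-fold higher. The SD of the log2 difference between them was 2.74, number 10 from the top among the same 2137 genes. Smcp, a cysteine-rich protein of the mitochondrial capsule in the midpiece, was at 315 in wild-type fat and 4789 in knockout fat, 15.2-fold higher. Of the member probe sets it was the brightest in wild-type fat.

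With each gene represented by its brightest probe set on average, the 9 members had a median log2 difference of 5.28, or 38.8-fold, with quartiles of 4.77 and 6.32. This choice took Cetn1 at 6.45 and not 2.58, and Odf2 at 5.28 and not 6.47 or 0.29. It favours probe sets that are bright in knockout fat, and the median is itself the value of Odf2. With the mean over probe sets the median was 4.77. Over all 6533 genes kept the median was -0.08, with quartiles of -0.50 and 0.42. Raising dim wild-type values to the floor gave a members' median of 5.10. With values below the floor raised to it, all 9 were at least 2-fold higher, as were 11.4% of all genes kept, and 6 at least 16-fold higher, as were 1.84%. As measured, 8 passed 16-fold, against 2.74% of genes. By their measured differences the 9 members ranked between place 8 (Meig1) and place 186 (Smcp) among the 6533 genes, and 6 of them were among the first 100. Their differences spread over 2.52 on the log2 scale, from 3.93 for Smcp to 6.45 for Meig1 and Cetn1. The 4 members below the floor in wild-type fat (Akap3, Tekt1, Tekt2 and Cetn1) carry only a lower bound, so their order among the members is not fixed.

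**Figure D2:**
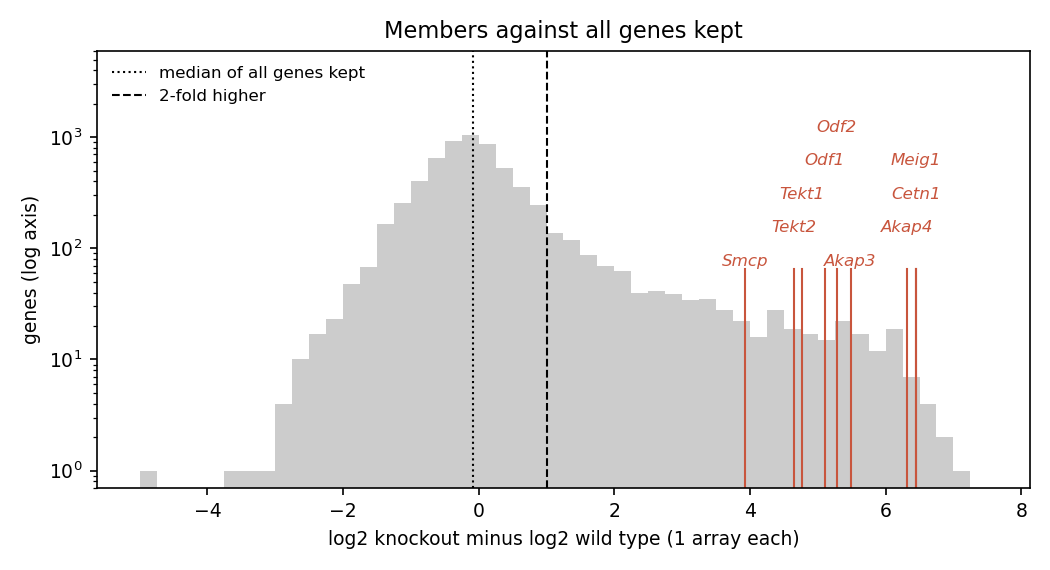
Number of genes (log axis) by log2 difference between the pools for all 6533 genes kept, with the 9 members drawn as red lines at their brightest probe set. The members lie between 3.93 and 6.45, in the upper tail, while the median of all genes is at -0.08.

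The genes nearest to the members in both pools included germ cell genes. Nearness was the distance between a gene's pair of log2 intensities and the members' median pair, 5.50 in wild-type fat and 11.64 in knockout fat. Over the 2 pools the nearest were Hmgb4 (46.0 and 3144), Pgk2 (44.7 and 2887), Gsg1 (38.5 and 3282), Fhl4 (52.8 and 3820) and Phf7 (47.0 and 2274), at distances of 0.033 to 0.49. Hmgb4 is a testis protein of the high mobility group and Pgk2 the phosphoglycerate kinase of spermatids. The likeness rests on 2 values per gene, and the 2 medians were taken separately. Few genes can lie near such a pair, since 2.74% of all genes kept were at least 16-fold higher as measured.

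Other genes of the tail, in 5 lists that exclude the members, were higher in knockout fat as well. Of 97 genes listed, 46 had a probe set and 39 were above the floor on at least 1 array. In wild-type fat 20 of these 39 were below the floor, so they were kept through knockout fat alone and had to come out higher. The other 19 were all higher, 17 of them at least 2-fold and 8 at least 16-fold, against 7.35% and 0.784% of the 5864 genes at or above the floor in wild-type fat. Over all 39, with values below the floor raised to 32, 31 were at least 2-fold and 13 at least 16-fold higher, with a median of 2.76 on the log2 scale. As measured the counts were 35 and 18 (13.7% and 2.74% of all genes kept), with a median of 3.54.

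In the fibrous sheath list all 10 genes kept were at least 2-fold higher as measured, with a median of 4.46, and 9 with dim values at the floor, with a median of 4.34. Cabyr, a calcium-binding protein of the sheath, was at 14.4 in wild-type fat and 1067 in knockout fat, at least 33.4-fold higher, although the lowest of its 3 probe sets differed by 2.82 on the log2 scale. Ropn1l, which binds the sheath anchors, was at 72.2 and 4841, 67.1-fold higher, and Tcp11 at 57.6 and 2219, 38.5-fold higher. At the low end Fsip1 was at 8.20 and 34.1, at least 1.06-fold higher. In the outer dense fibre list all 4 genes kept were at least 2-fold higher as measured, but all 4 were below the floor in wild-type fat. Spag4 was at least 7.10-fold higher, Odf4 at least 6.31-fold, Odf3 at least 5.05-fold and Spag5 at least 1.48-fold.

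In the axoneme list, 14 of 46 genes had a probe set and 9 were kept. These 9 were all at least 2-fold higher as measured, with a median of 2.43, and 7 were with dim values at the floor, with a median of 1.55. Dnah8, a dynein heavy chain, was at 15.2 and 1322, at least 41.3-fold higher. Rsph1, a radial spoke protein, was at 57.7 and 1836, 31.8-fold higher, and Mns1 at 23.7 and 403, at least 12.6-fold higher. Cfap20 was the least different, at 135 and 333. In the tail assembly list 6 of 8 genes kept were at least 2-fold higher, with a median of 2.20. Spata6, needed for the joint of head and tail, was at 82.9 and 3492, 42.1-fold higher, although the lower of its probe sets differed by 2.42 on the log2 scale. Spata4 was 26.1-fold higher and Ift172, of the intraflagellar transport machinery, 11.2-fold. Ift20, another transport protein used by cilia of many cells, was at 31.5 and 40.3.

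In the mitochondrial sheath list, 6 of the 8 genes kept were at least 2-fold higher and the median was 3.91, or 2.80 with dim values at the floor. Gk2, a glycerol kinase of the testis, was at least 82.4-fold higher, Spata19 at least 53.5-fold and Cox6b2, a germ cell subunit of cytochrome oxidase, 29.3-fold. Gpx4 and Vdac3, which are expressed in many tissues, were at 2787 and 3474 and at 1036 and 1492.

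**Figure D3:**
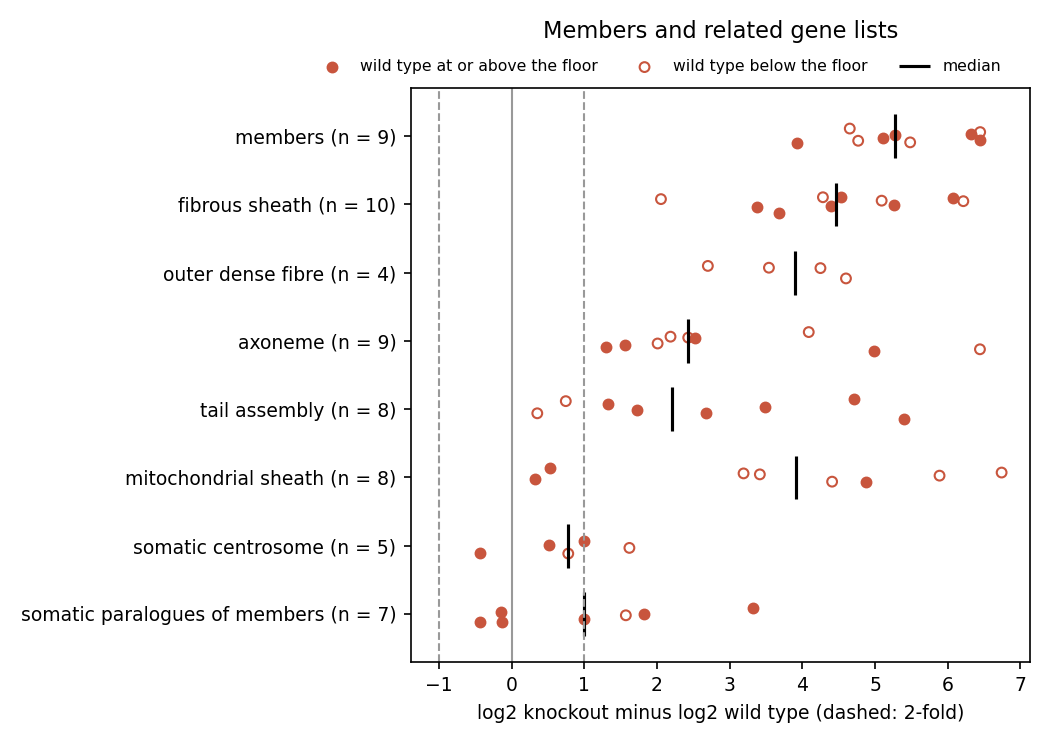
Log2 difference between the pools for the 9 members, the 5 lists of other tail genes and the 2 lists of somatic relatives, 1 point per gene kept, open where the wild-type value was below the floor, with the median as a black bar. The median is 5.28 for the members, between 2.20 and 4.46 for the tail lists, and 0.78 and 0.998 for the somatic relatives.

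Relatives of the members that serve all cells had smaller differences. Cetn2 and Cetn3, the centrins of somatic centrioles, were at 573 and 424 and at 773 and 1543, log2 differences of -0.43 and 0.998. The probe sets of Cetn1, dim in wild-type fat, gave only the bounds of at least 41.9-fold and at least 3.65-fold. In the list of centriole and centrosome genes, 11 of 20 had a probe set and 5 were kept, with a median of 0.78. Plk4, a kinase of centriole duplication, was at least 2.28-fold higher, the only gene of this list past 2-fold as measured (after median centring or removal of the intensity trend Cetn3 passed too), and Poc5 was at least 1.53-fold higher. In the list of somatic anchor proteins and centrins, 3 of 7 genes kept were at least 2-fold higher, with a median of 0.998. Akap1, an anchor of the mitochondrial surface, was at 61.1 and 608, 9.95-fold higher, but the other of its probe sets differed by -0.22 on the log2 scale. Akap12 was 3.54-fold higher and Akap10 at least 2.11-fold. The median of this list was -0.14 without probe sets of shared sequence, meaning names ending in _x_at, _s_at or _a_at.

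Markers of spermatids were far higher in knockout fat, like the members. All 8 markers of elongating spermatids were at or above the floor in both pools, and each was at least 2-fold higher, with a median of 4.59 on the log2 scale. Gsg1 was 85.2-fold higher, Hmgb4 68.4-fold and Hils1, a spermatid linker histone, 48.0-fold, and Prm1, a protamine, was at 1193 and 10833, 9.08-fold higher. Their summed intensity was 2495 in wild-type fat and 41806 in knockout fat. Of 7 markers of round spermatids 6 were at least 2-fold higher, all 6 kept through knockout fat alone, and the list's sum was 153 and 3823. Tssk2, Acrv1 and Zpbp had the largest measured differences, with bounds of at least 28.9-, 28.6- and 17.3-fold. The highest bound was that of Tbpl1, at least 30.2-fold, with a wild-type value of 31.7, just under the floor. Crem, the transcription factor of spermatids, was at 54.6 and 43.9.

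The lists of earlier germ cells had more markers near or below the floor. Of 12 spermatocyte markers with a probe set 8 were kept, 6 of them through knockout fat alone. As measured 7 were at least 2-fold higher, with a median of 2.64, and with dim values at the floor 5 were, with a median of 1.49, and the list's sum was 353 and 1937. Syce2 of the synaptonemal complex was 15.1-fold higher, Sycp1 at least 2.60-fold and Tex101 at least 3.05-fold, and Hormad1 differed by 0.98 on the log2 scale. The spermatogonial list had 5 of 10 markers above the floor, 3 of them through knockout fat alone, and a sum of 756 and 2396. Its median was 2.04, but 1.04 with a floor of log2 4 and 0.55 over all 10 markers with no floor. Ddx4, at least 45.1-fold higher, Dazl, at least 6.22-fold, and Id4, at least 3.97-fold, were higher there. Gfra1, above the floor in both pools, was at 117 and 311, 2.65-fold higher, whereas Zbtb16 was at 502 and 236. The stem cell marker Lin28a and the meiotic entry gene Stra8 were among the 5 markers below the floor in both pools.

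Most markers of the somatic cells of the testis were below the floor. Of 13 Sertoli cell markers 8 were below the floor in both pools. Of these, Amh, Fshr, Gata4 and Dhh differed by -0.03 to 0.13 on the log2 scale. Amhr2, Rhox5, Tsx and Inha differed by 1.03 to 1.53, values that are uncertain under the floor. Aard was at least 5.48-fold and Cldn11 at least 1.89-fold higher, Clu, which many epithelia express, was at 27931 and 36322, and Wt1 was at 32.2 and 31.9. The list's sum was 28120 and 36758. Its median was 0.38 over the 5 genes kept, and 0.38 over all 13 with no floor. With floors of log2 4 and 6 it was 1.14 and 1.68, over 9 and 2 genes. Of 5 Leydig cell markers 4 were below the floor in both pools, Star and Cyp11a1 among them, while Cyp17a1 was at 44.0 and 312, and the sum was 83.4 and 384.

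The epididymis and adipocyte lists had far smaller medians. All 9 epididymis markers were above the floor in both pools, with a median of 0.33 and sums of 50822 and 60058. Defb2 was 1.97-fold, Adam28 1.80-fold and Cst11 1.69-fold higher, and Cuzd1 was at 9657 and 9440. All 13 adipocyte markers were lower in knockout fat as measured, though Car3 was slightly above 0 after median centring, and 8 of them were lower by 2-fold or more, as were 9.14% of all genes kept, with a median of -1.16 and sums of 81199 and 57324. Car3, Fabp4 and Adipoq differed least, by -0.06, -0.20 and -0.35, and Lep, the hormone leptin, most, at 1698 and 233. Adipocyte markers such as Car3, Fabp4 and Adipoq were bright in both pools, but so were epididymis markers such as Cuzd1. The epididymis sum was below the adipocyte sum in wild-type fat and above it in knockout fat. Sums over different probe sets do not compare transcript amounts, and the share of epididymis in the pools was not tested.

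The list of multiciliated cells, which line the ducts next to the testis and share axonemal genes with sperm, had a probe set for 6 of 14 genes. Rsph1, which is also in the axoneme list, and Mlf1 were 31.8-fold and 30.0-fold higher and Tppp3 was at 56.4 and 37.9. Foxj1, which defines these cells, was below the floor in both pools, at 26.1 and 28.8, as were Dnah5 and Rfx3, and the sum was 213 and 3601. The median of the 3 genes kept was 4.91, but it was 2.53 with a floor of log2 4, 2.21 when probe sets of shared sequence were left out, and 0.35 over all 6 genes with no floor. The part of the tissue's cell makeup in the members' differences was not tested.

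**Figure D4:**
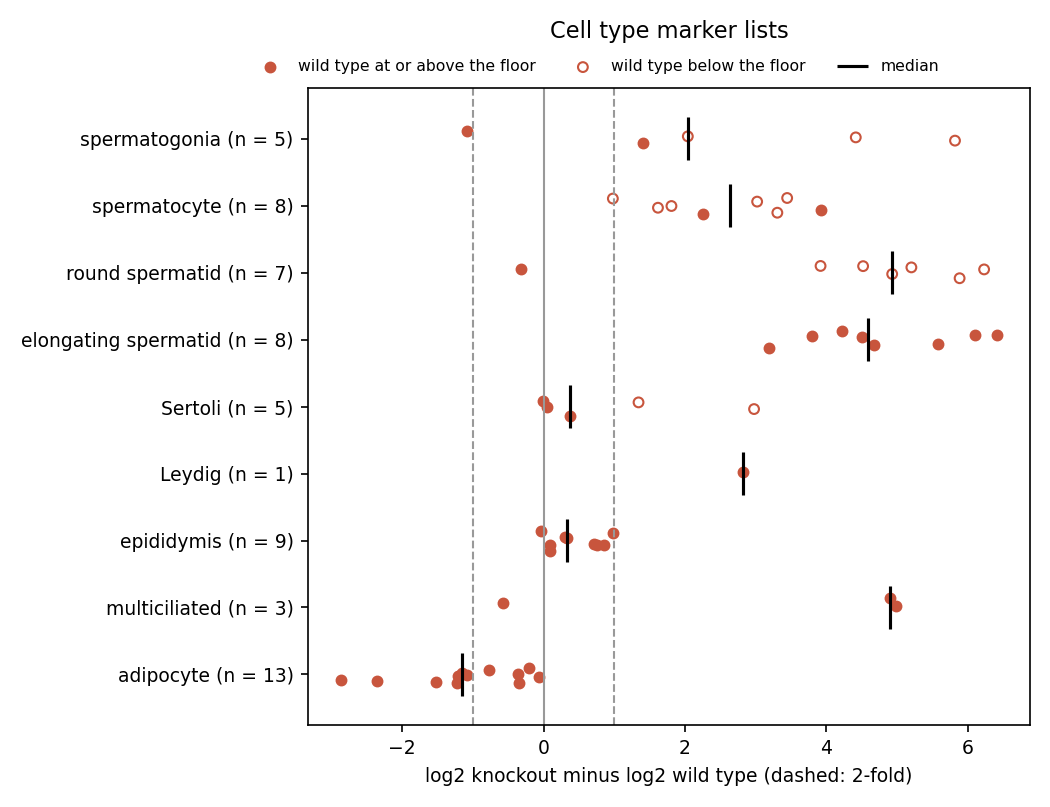
Log2 difference between the pools for 9 cell type marker lists, 1 point per gene kept, open where the wild-type value was below the floor, with the median as a black bar. The round and elongating spermatid lists, with medians of 4.93 and 4.59, and 2 of the 3 multiciliated genes lie far to the right, the epididymis list is near 0, at 0.33, and the adipocyte list is below 0, at -1.16.

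The deposited values of the 2 arrays were alike in overall brightness. Median intensity was 22.3 and 23.0, and 42.0% and 43.1% of probe sets reached the floor. GCRMA normally brings arrays to a common distribution, so this likeness is no check of the arrays or the RNA. The spiked control cre differed by 0.13 on the log2 scale at its 3′ probe set, and the spiked control dap by -0.85. These are far below the members' differences apart from the third probe set of Odf2, at 0.29, which lay within the size of the shift of dap.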

How the data were processed

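The deposited values were linear probe set intensities, from 1.91 to 36322. Per the submitters' processing notes they come from GCRMA 2.20, which corrects background from probe sequence and compresses dim signals, so that folds near the floor are uncertain. Log2 of each intensity was taken first. Genes were named from the array annotation and updated by Entrez identifier to GRCm38.p6 symbols (20364 of 20393 probe sets naming 1 gene matched; 691 named several genes and 1606 none, and both kinds were left out).

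A probe set was kept at log2 5 or more (intensity 32) on at least 1 array, and the kept probe set brightest on average stood for its gene. A fold with 1 value under the floor is given as "at least", that value being raised to 32. Called means 2-fold or more. With 1 array per group no test was made.

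Named genes were the members, the 3 highest and the lowest kept gene of each list by measured difference, the 5 nearest genes and Ppard. Others were chosen after their values were seen. Members and lists were chosen with earlier results of these data known. Scripts (Python 3.11.15, pandas 2.3.3) were tested on simulated data. Promoter sequences are from RefSeq.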

Additional observations from a re-analysis of the deposited data

How the results depend on the processing

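The alternatives were no floor, floors of log2 4 and 6, centring on the median, removal of the intensity trend, the mean over probe sets, leaving out probe sets of shared sequence, dim values set to the floor, and log2 of the value plus 32. Shared sequence here means only a name ending in _x_at, _s_at or _a_at. Whether those probes match other genes or several transcripts of the same gene was not analysed. Counting Spag6l as Spag6 was added after the data were seen. Each member's log2 difference stayed above 0 in all 79 alternative values and was at least 2-fold in 78. The exception is Odf2 without probe sets of shared sequence, at 0.29, because only its probe set 1454735_at is left. The floor settings could not change the members' values, since every member probe set passes these floors. The mean over probe sets could change only the 3 members with several. All settings use the same 2 arrays, so this count holds no replication. Tekt1 and Cetn1 have no probe set left without those of shared sequence. In that setting 6 of 7 member probe sets were at least 2-fold higher, since fewer are tested, and the spread among members was 6.16. The members' median was 4.77 with the mean over probe sets and 4.82 with 32 added, which shrinks dim values by construction. The spread was 2.93 with dim values at the floor. The median of the somatic anchor proteins and centrins reversed to -0.14 without shared probe sets. The count of other tail genes at least 2-fold higher was 35 of 39 as measured and 31 of 39 with dim values at the floor. Where the number tested changed too, it was 28 of 29 without shared probe sets, 31 of 33 with a floor of log2 6, 37 of 44 with log2 4 and 37 of 46 with none. The fibrous sheath median was above the mitochondrial sheath one (4.46 and 3.91) but below it without shared probe sets (4.45 and 4.64). Values were called moved past 0.25, the median SD between probe sets of 1 gene, which holds no variation between animals or arrays and was 3.28 for Odf2 and 2.74 for Cetn1. No paired analysis was possible because each group holds 1 array. Signal over background limits Akap3, Tekt1, Tekt2 and Cetn1 to lower bounds.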
